A study of Mus musculus with 69 samples.

Results

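The unfolded protein response genes examined here were Herpud1, Hspa5, Ddit3, Xbp1, Atf4, Creld2, Sdf2l1, Pdia4, Dnajb9 and Hsp90b1. They were chosen by name, with earlier results of these data known, and they were 10 of the 17628 genes tested in mouse lung. A gene's probes were the array features whose transcript accession matched its symbol, which gave 13 of the 41174 probes on the array. Dnajb9 had 3 probes, Hsp90b1 had 2 and each of the others had 1. All 10 genes passed the filter on dim probes, and all 13 probes were well above background on 69 of 69 arrays.

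Female C57BL/6 mice, obtained at 5 to 7 weeks of age and acclimatised for 1 to 3 weeks, were given titanium dioxide nanoparticles (TiO2) or vehicle once, instilled through the trachea. The particle NRCWE-001 has no charge and NRCWE-002 is a modified, positively charged form. All mice were wild type, and each received the instillation fluid, which the study describes as 2% serum in water and the labels of the vehicle mice give as H2O. Whole lungs were collected 1 or 28 days later, and RNA from a small piece of each was hybridised on its own array in Cy5 against a common mouse reference RNA in Cy3. There were 5 mice in each of the groups given 18, 54 or 162 µg of NRCWE-001 or NRCWE-002 on each day, 5 vehicle mice on day 1 and 4 vehicle mice on day 28.

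The unfolded protein response is the reaction of a cell to unfolded protein in the endoplasmic reticulum (ER), where secreted and membrane proteins are folded. Its sensors are IRE1, which splices Xbp1 mRNA, PERK, which raises translation of Atf4, and ATF6, which is cut to release a transcription factor. These factors raise genes for chaperones, folding enzymes and the machinery that removes misfolded protein. In the lung, the alveolar type II cells that secrete surfactant proteins and the plasma cells that secrete antibody carry a large ER. Splicing of Xbp1, translation of Atf4 and cleavage of ATF6 are steps that a total mRNA level does not measure.

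Promoter sequence is shown for 5 of the genes because the response is known to act through short DNA elements near the start site, and because these genes carried either such an element or the largest change. Of the 10 genes, all matched 1 RefSeq promoter each (build GRCm38.p6, 250 bases before to 50 after the start). The ER stress response element (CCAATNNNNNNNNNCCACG, read on both strands) was present in 3 of the 10, Hspa5, Creld2 and Hsp90b1, and in 39 of all 32851 promoters (0.119%). Its second form (ATTGGNCCACG) was present in Herpud1, 1 of the 10, and in 12 of all promoters (0.0365%). The UPR element (TGACGTGG) was present in 0 of the 10 and in 0.676% of all, and the ATF4 composite core (TGATGNAA) was present in 1, Herpud1, and in 3.97% of all. Each sequence below gives the 250 bases before the start site, 5′ to 3′ on the strand of the gene, with matches to either form of the ER stress response element in capitals. They lie at chr2:34771840-34772089 (plus strand), chr15:88819396-88819645 (plus strand), chr10:86705445-86705694 (minus strand), chr8:94386179-94386428 (plus strand) and chr16:17132384-17132633 (minus strand).
Hspa5: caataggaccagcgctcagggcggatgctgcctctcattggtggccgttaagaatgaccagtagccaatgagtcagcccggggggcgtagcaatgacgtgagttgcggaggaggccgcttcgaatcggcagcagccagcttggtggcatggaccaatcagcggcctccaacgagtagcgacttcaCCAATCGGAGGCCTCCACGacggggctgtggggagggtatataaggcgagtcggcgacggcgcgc
Creld2: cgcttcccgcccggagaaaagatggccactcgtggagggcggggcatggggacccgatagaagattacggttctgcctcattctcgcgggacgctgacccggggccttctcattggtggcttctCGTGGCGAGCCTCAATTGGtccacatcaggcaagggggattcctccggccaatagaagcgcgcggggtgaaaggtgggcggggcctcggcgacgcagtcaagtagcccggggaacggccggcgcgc
Hsp90b1: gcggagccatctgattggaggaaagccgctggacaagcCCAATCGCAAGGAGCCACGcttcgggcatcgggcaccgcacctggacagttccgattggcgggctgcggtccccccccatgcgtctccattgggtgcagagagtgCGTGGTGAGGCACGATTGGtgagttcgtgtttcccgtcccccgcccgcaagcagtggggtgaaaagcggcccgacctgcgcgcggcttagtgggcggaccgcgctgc
Herpud1: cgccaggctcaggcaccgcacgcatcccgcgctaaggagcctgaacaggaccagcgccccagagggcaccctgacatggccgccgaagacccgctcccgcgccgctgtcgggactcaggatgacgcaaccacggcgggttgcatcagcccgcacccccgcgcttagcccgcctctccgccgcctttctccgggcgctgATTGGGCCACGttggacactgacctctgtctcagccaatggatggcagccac
Sdf2l1: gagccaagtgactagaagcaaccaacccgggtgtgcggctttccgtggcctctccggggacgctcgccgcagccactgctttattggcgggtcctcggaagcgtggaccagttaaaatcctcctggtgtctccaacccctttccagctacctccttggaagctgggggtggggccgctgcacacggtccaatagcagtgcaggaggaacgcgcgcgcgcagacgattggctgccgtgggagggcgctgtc

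The match in Hspa5 ran from 65 to 47 bases before the start (positions -65 to -47). In Creld2 it lay at -126 to -108 on the opposite strand, and Hsp90b1 had a match at -212 to -194 and another at -107 to -89 on the opposite strand. The match in Herpud1 lay at -52 to -42. Sdf2l1 held none of these letters within its window, and it had the largest change of the 10 genes at 162 µg on day 1. A match is given as a description of the sequence and was not tested as a binding site.

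Levels are given as the log2 of a gene's signal in lung RNA over that in the reference RNA, and a gene is compared between groups but not with another gene. It was called where limma gave an adjusted p below 0.05, fitted over all 69 arrays and adjusted by Benjamini-Hochberg over all 17628 genes. Lung markers such as Sftpc, Scgb1a1 and Ager were well above background on 69 of 69 arrays in 10 of 10 genes. The arrays lay on 18 slides, and 29.3% (Creld2) to 82.2% (Dnajb9) of the spread within groups lay between slides. No share for a gene free of slide effects was set beside these, so the lower shares do not by themselves show one. The share of spots well above background in the sample channel ran from 61.4% to 87.8% of an array, and 0 spots were saturated. The lung was measured in bulk, where fewer cells of a type and less RNA per cell cannot be told apart.

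On day 1, 3 of the 10 genes rose at 162 µg of each particle: Sdf2l1 and Creld2, both ER-resident proteins, and Hspa5 (BiP), the main chaperone of the ER lumen. Of all genes tested, 0.454% rose at 162 µg of NRCWE-001 (0.624% called in either direction) and 0.437% at 162 µg of NRCWE-002 (0.59%). Both particles were compared with the same vehicle arrays, so the calls are not independent. The median change of the 10 genes was 0.45 on the log2 scale with NRCWE-001 and 0.37 with NRCWE-002, where the median of all genes was -0.00087 and 0.0054. With NRCWE-001 the change was above 0 in 10 of 10 genes (49.7% of all genes), and with NRCWE-002 in 8 of 10 (52% of all genes). All 5 mice given NRCWE-002 lay above every vehicle mouse in 4 of 10 genes (3% of all genes), and this held in 0 of 10 with NRCWE-001 (1.7% of all genes). At 18 and 54 µg on day 1, 0 of 10 genes were called with either particle by limma (0.113% of all genes at 54 µg of NRCWE-002 and 0% in the other 3 comparisons), and at an unadjusted p below 0.05 there were 1 and 3 of 10 with each (5.28% and 4.99% of all genes with NRCWE-001, 4.16% and 6.75% with NRCWE-002).

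**Figure D1:**
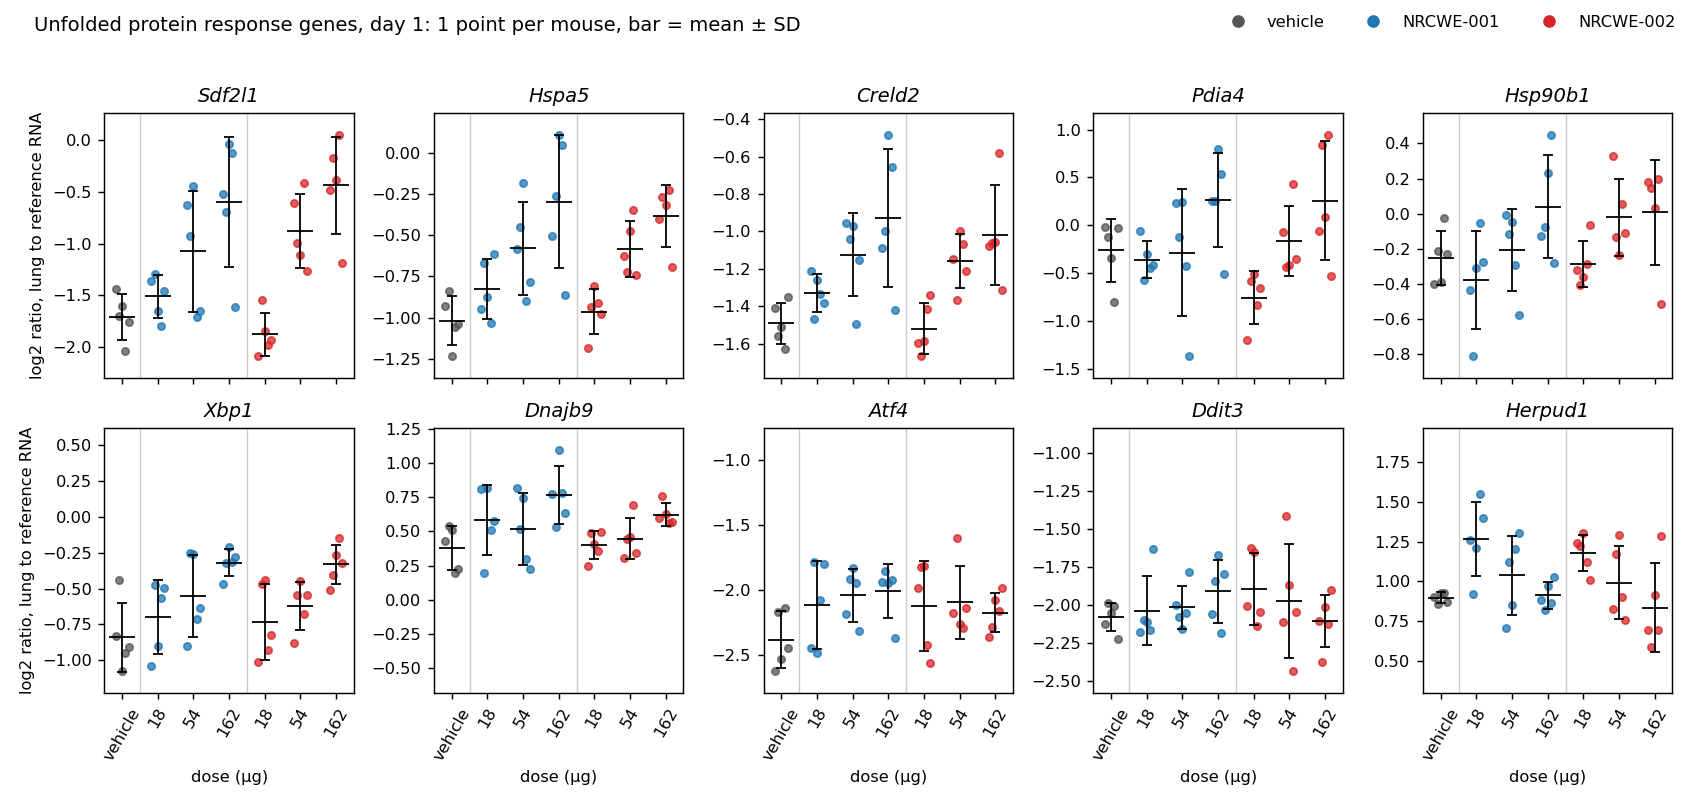
Log2 ratio of lung to reference RNA (vertical axis) for each of the 10 genes on day 1, by dose in µg (horizontal axis), with 1 point per mouse, 5 mice per group and a bar at the mean ± SD. At 162 µg of NRCWE-002, Sdf2l1 ran from -1.19 to 0.05 against -2.04 to -1.44 in vehicle mice, whereas Ddit3 and Herpud1 overlapped their vehicle mice.

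Sdf2l1, a partner of ER chaperones, had log2 ratios of -1.44, -1.70, -1.60, -2.04 and -1.76 in the vehicle mice of day 1. At 162 µg of NRCWE-001 they were -0.52, -0.70, -0.04, -0.12 and -1.61. At 162 µg of NRCWE-002 they were -0.49, -0.17, -0.38, 0.05 and -1.19. All 5 mice given NRCWE-002 lay above every vehicle mouse, and so did 4 of 5 given NRCWE-001, the exception being the mouse at -1.61. The change was 1.11 ± 0.24 (SE) on the log2 scale with NRCWE-001, a 2.16-fold rise (n = 5 and 5, adjusted p = 0.00951), and 1.27 ± 0.24 with NRCWE-002, a 2.42-fold rise (adjusted p = 0.00218).

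Across the groups of day 1, Sdf2l1 averaged -1.71 ± 0.22 (SD) in vehicle mice. With NRCWE-001 it averaged -1.51 ± 0.21 at 18 µg, -1.07 ± 0.58 at 54 µg and -0.60 ± 0.63 at 162 µg. With NRCWE-002 it averaged -1.88 ± 0.20, -0.88 ± 0.36 and -0.44 ± 0.47. At 54 µg of NRCWE-002 all 5 mice lay above every vehicle mouse, and the change of 0.83 ± 0.24 (SE) did not pass the test (adjusted p = 0.232). With slide as a fixed block this change was 1.08 (adjusted p = 0.00768) and that of Hspa5 0.54 (adjusted p = 0.0297), in a fit that called 267 of 17628 genes at that dose. With slide as a random block Sdf2l1, Hspa5 and Creld2 were called there, among 221 genes, and with scan day as a block Sdf2l1 and Hspa5, among 166. The separation of the groups held for 2 of 10 genes at that dose, Sdf2l1 and Hspa5 (1.8% of all genes). Neighbouring doses overlapped, except 18 and 54 µg of NRCWE-002, where the highest mouse at 18 µg (-1.55) lay below the lowest at 54 µg (-1.27).

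Hspa5 had log2 ratios of -0.93, -0.84, -1.23, -1.05 and -1.04 in the vehicle mice of day 1. At 162 µg of NRCWE-001 they were -0.51, -0.26, 0.11, 0.05 and -0.87, and at 162 µg of NRCWE-002 they were -0.40, -0.27, -0.32, -0.22 and -0.69. The mouse at -0.87 was the only one of the 10 within the vehicle range. The change was 0.72 ± 0.14 (SE) with NRCWE-001, a 1.65-fold rise (adjusted p = 0.00237), and 0.64 ± 0.14 with NRCWE-002, a 1.55-fold rise (adjusted p = 0.0092). At 54 µg the change was 0.44 with either particle and was not called (adjusted p = 0.56 for NRCWE-001 and 0.324 for NRCWE-002).

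Creld2, an ER protein with a disulfide exchange motif, had log2 ratios of -1.41, -1.56, -1.51, -1.63 and -1.35 in the vehicle mice of day 1. At 162 µg of NRCWE-001 they were -1.09, -0.997, -0.49, -0.65 and -1.42, and at 162 µg of NRCWE-002 they were -1.08, -1.06, -1.06, -0.58 and -1.31. The vehicle range was left by 4 of 5 mice given NRCWE-001 and by 5 of 5 given NRCWE-002. The change was 0.56 ± 0.12 (SE) with NRCWE-001, a 1.48-fold rise (adjusted p = 0.00857), and 0.47 ± 0.12 with NRCWE-002, a 1.39-fold rise (adjusted p = 0.0372).

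In Sdf2l1, Hspa5, Creld2, Pdia4 and Hsp90b1, replicate 5 of the group at 162 µg was the lowest of its 5 mice with NRCWE-001 and again with NRCWE-002. These 2 mice were on different slides. Without replicate 5 of NRCWE-001 the changes at 162 µg were larger, 1.36 for Sdf2l1, 0.86 for Hspa5 and 0.68 for Creld2.

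**Figure D2:**
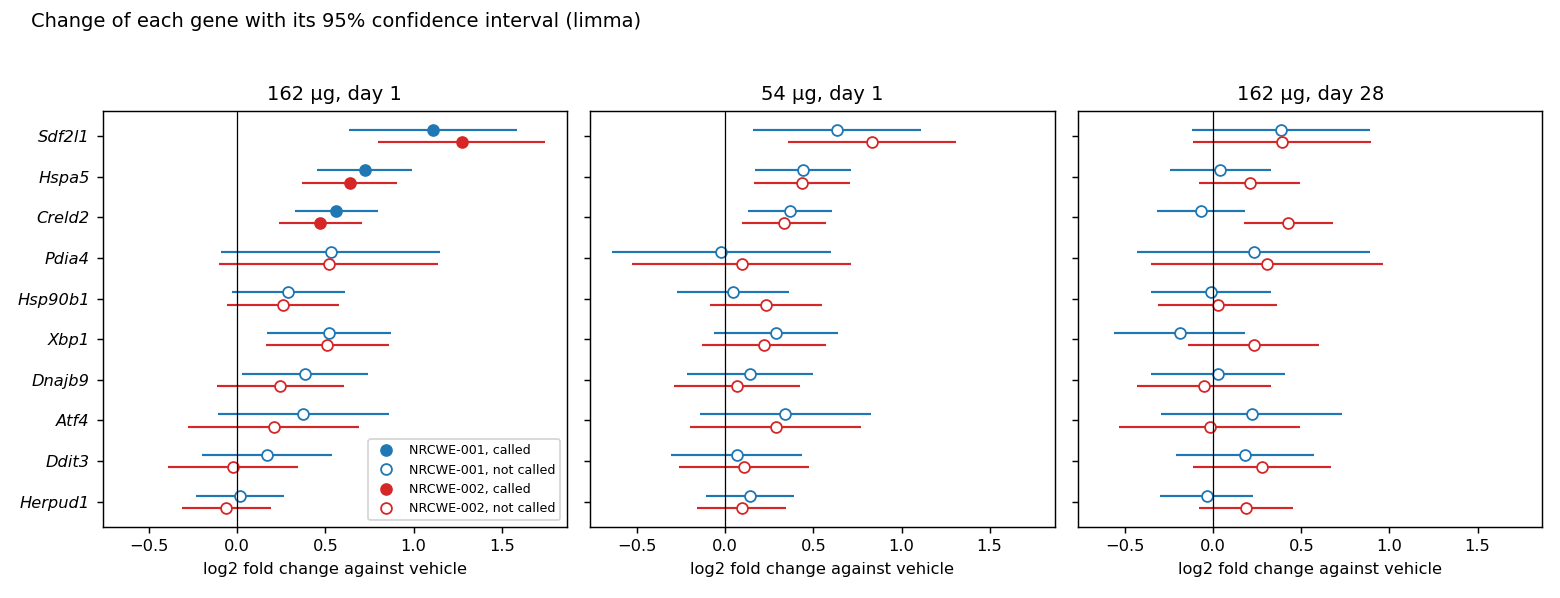
Log2 fold change against the vehicle mice of the same day (horizontal axis) for each gene, with its 95% confidence interval from limma, at 162 µg and 54 µg on day 1 and at 162 µg on day 28. Filled points were called at an adjusted p below 0.05. The only filled points are Sdf2l1, Hspa5 and Creld2 at 162 µg on day 1.

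The dose effect, an F-test over the 3 doses of a particle against vehicle, gave the same 3 genes on day 1. With NRCWE-001 the adjusted p was 0.0059 for Hspa5, 0.018 for Sdf2l1 and 0.0185 for Creld2 (3 of 10 genes called, against 0.879% of all genes). With NRCWE-002 it was 0.000134 for Sdf2l1, 0.00747 for Hspa5 and 0.0158 for Creld2 (3 of 10, against 0.771% of all genes). Among the 17628 genes, Sdf2l1 ranked 9 in the test of NRCWE-002 and 79 in that of NRCWE-001.

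The calls varied with single mice. Without replicate 3 of the mice given 162 µg of NRCWE-001, Sdf2l1 (adjusted p = 0.0973) and Creld2 (0.118) were not called at 162 µg, and without replicate 4 neither was called (0.104 for both). Hspa5 remained called whichever of the 10 arrays was left out, with an adjusted p of at most 0.039. With NRCWE-002, Sdf2l1 remained called in all 10 such fits, Hspa5 was lost without replicate 4 (0.0604), and Creld2 was called in 1 of 10, with an adjusted p of up to 0.244. When the fit held only the arrays of the groups compared, none of the 3 passed for NRCWE-001 (0.0771 for Sdf2l1, 0.0772 for Hspa5 and 0.0981 for Creld2), while all 3 passed for NRCWE-002. Over all 17628 genes that setting called 12 for NRCWE-001 and 563 for NRCWE-002, against 110 and 104 in the fit over all arrays. No difference between the particles in these genes is read from it.

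The differences were also present within slides. On the 3 slides that held both vehicle mice and mice given 162 µg of NRCWE-001, Sdf2l1 was higher by 0.92, 1.00 and 1.56, Hspa5 by 0.42, 0.57 and 1.34, and Creld2 by 0.32, 0.56 and 1.02. On the 2 shared slides of NRCWE-002, Sdf2l1 was higher by 1.56 and 1.37, Hspa5 by 0.65 and 0.72, and Creld2 by 0.55 and 0.29. With slide as a fixed block, 6 of the 10 genes were called at 162 µg of NRCWE-001, adding Xbp1, Atf4 and Dnajb9, while the calls over all 17628 genes went from 110 to 725. With NRCWE-002 that fit called 4 of 10, adding Xbp1, and the calls over all genes went from 104 to 346. Nothing particular to the 10 genes is read from these larger counts.

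Pdia4, a disulfide isomerase, and Hsp90b1 (GRP94), the HSP90 of the ER, were measured as chaperones alongside Hspa5. Pdia4 ran from -0.81 to -0.01 in vehicle mice of day 1, from -0.51 to 0.80 at 162 µg of NRCWE-001 and from -0.53 to 0.94 at 162 µg of NRCWE-002. Its change was 0.53 ± 0.31 (SE) and 0.52 ± 0.31 and was not called (adjusted p = 0.833 and 0.672). Hsp90b1, whose promoter carried 2 matches to the ER stress response element, changed by 0.29 ± 0.16 and 0.26 ± 0.16 (adjusted p = 0.789 and 0.693). Its 2 probes gave 0.31 and 0.27 with NRCWE-001.

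Xbp1, the transcription factor acting after IRE1, had log2 ratios of -0.83, -0.44, -1.08, -0.95 and -0.91 in vehicle mice of day 1, -0.47, -0.32, -0.21, -0.31 and -0.28 at 162 µg of NRCWE-001, and -0.51, -0.41, -0.26, -0.15 and -0.32 at 162 µg of NRCWE-002. Of the exposed mice, 4 of 5 in each group lay above every vehicle mouse. The change was 0.52 ± 0.18 (SE) and 0.51 ± 0.18 and did not pass the test (adjusted p = 0.222 and 0.194). It passed with slide as a fixed block (adjusted p = 0.00485 and 0.0225). Dnajb9 (ERdj4), a cochaperone of Hspa5, changed by 0.38 ± 0.18 and 0.24 ± 0.18 (adjusted p = 0.595 and 0.785), and all 5 mice given NRCWE-002 lay above every vehicle mouse. With slide as a fixed block Dnajb9 was called with NRCWE-001, among 725 genes, and was not called with NRCWE-002. Its 3 probes ran from 0.21 to 0.38 with NRCWE-001 and from 0.057 to 0.24 with NRCWE-002. The changes of the gene equalled those of 1 probe, the one with the largest change for each particle. Whether the groups were also apart at the other probes is not given here.

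Atf4 and Ddit3 (CHOP), the transcription factors of the PERK branch, were not called in any of the 12 comparisons with vehicle without a block. Atf4 ran from -2.62 to -2.13 in vehicle mice of day 1, from -2.37 to -1.85 at 162 µg of NRCWE-001 and from -2.36 to -1.98 at 162 µg of NRCWE-002, with changes of 0.37 ± 0.24 (SE) and 0.21 ± 0.24 (adjusted p = 0.886 and 0.928). Ddit3 ran from -2.22 to -1.99, from -2.18 to -1.67 and from -2.37 to -1.91, with changes of 0.17 ± 0.18 and -0.03 ± 0.18 (adjusted p of 0.997 or more). The exposed and vehicle mice overlapped for both genes. Without a block, the 95% interval of the change at 162 µg reached 0.86 and 0.69 for Atf4, and 0.54 and 0.34 for Ddit3. Rises up to these sizes could not be told from no change in that fit. With slide as a fixed block Atf4 was called at 162 µg of NRCWE-001, among 725 genes, and not with NRCWE-002. On the 3 slides shared with vehicle mice Atf4 was higher by 0.68, 0.32 and 0.58 with NRCWE-001. On the 2 shared slides of NRCWE-002 it changed by -0.23 and 0.37. Ddit3 was not called at 162 µg on day 1 with that block.

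Herpud1, an ER membrane protein of the degradation pathway, had a different order of doses. On day 1 its log2 ratios were 0.90, 0.86, 0.93, 0.93 and 0.87 in vehicle mice, and at 162 µg the change was 0.01 ± 0.13 (SE) with NRCWE-001 and -0.06 ± 0.13 with NRCWE-002. At 18 µg they were 1.26, 0.92, 1.21, 1.55 and 1.40 with NRCWE-001 and 1.24, 1.22, 1.30, 1.12 and 1.01 with NRCWE-002. All 5 mice given 18 µg of NRCWE-002 lay above every vehicle mouse (1 of the 10 genes, against 1.38% of all genes), and 4 of 5 given NRCWE-001. The changes of 0.37 and 0.28 were not called (adjusted p = 0.837 and 0.984).

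On day 28 Herpud1 was the only 1 of the 10 genes called at any dose. Its log2 ratios were 0.76, 0.44, 1.22 and 0.79 in vehicle mice and 1.22, 1.44, 1.82, 1.54 and 1.57 at 18 µg of NRCWE-001. All 5 exposed mice lay above every vehicle mouse (1 of the 10 genes, against 1.16% of all genes), although the lowest exposed mouse (1.224) was close to the highest vehicle mouse (1.219). The change was 0.72 ± 0.13 (SE), a 1.64-fold rise (n = 5 and 4, adjusted p = 0.00271), and 0.136% of all genes rose in that comparison. At 54 µg the change was 0.25 and at 162 µg -0.04, and neither was called. The dose effect of NRCWE-001 on day 28 had an adjusted p of 0.000487 for Herpud1 (1 of 10 genes, against 0.686% of all genes). Without vehicle replicate 2, the mouse at 0.44, the change at 18 µg was 0.59 and was not called (adjusted p = 0.0765). With only the arrays of that particle's comparison in the fit it was not called (adjusted p = 0.344). With slide as a fixed block it was 0.60 (adjusted p = 0.0124), and on the 2 slides holding both groups it was 0.22 and 0.78.

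The call of Herpud1 was accompanied by other lists at 18 µg of NRCWE-001 on day 28. The 10 heat shock genes had summed levels, given as the mean log2 ratio over the list, of -0.09 to 0.37 in the exposed mice and -0.72 to -0.47 in vehicle mice. Of these, 3 of 10 rose (0.136% of all genes), namely Hspa1a by 2.23, Hsph1 by 1.42 and Hspa1b by 1.08 on the log2 scale. The 8 heart muscle markers ran from 0.28 to 3.37 in the exposed mice (median 3.33) and from 0.40 to 2.59 in vehicle mice (median 0.50). Their median change was 1.25, with 8 of 8 above 0 and 0 of 8 called. The 10 lung markers had a median change of -0.23, with 1 of 10 above 0 and 0 of 10 called. The 6 B cell markers had a median change of -0.71, with 0 of 6 above 0. The 6 adipocyte markers had a median change of 0.47, with 6 of 6 above 0, and 0 were called in either list. The part of heat shock, heart muscle or these cells in the change of Herpud1 was not tested.

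At 162 µg on day 28, 0 of the 10 genes were called with either particle by limma (0.0511% of all genes with NRCWE-001 and 0.00567% with NRCWE-002). At an unadjusted p below 0.05 there were 0 with NRCWE-001 (7.34% of all genes) and 1 with NRCWE-002 (7.27%), which was Creld2. The dose effect of NRCWE-002 on day 28 called 0 of 10 genes (0% of all genes), and at an unadjusted p below 0.05 it gave Creld2 alone (4.61% of all genes). Sdf2l1 had log2 ratios of -1.61, -1.33, -1.57 and -1.78 in vehicle mice, -0.75, -1.60, -1.39, -1.21 and -1.01 at 162 µg of NRCWE-001, and -1.44, -0.49, -1.79, -1.38 and -0.81 at 162 µg of NRCWE-002. The groups overlapped, and the change was 0.38 ± 0.25 (SE) and 0.39 ± 0.25 (adjusted p = 0.836 and 0.783). For Hspa5 the change was 0.04 ± 0.14 and 0.21 ± 0.14.

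**Figure D3:**
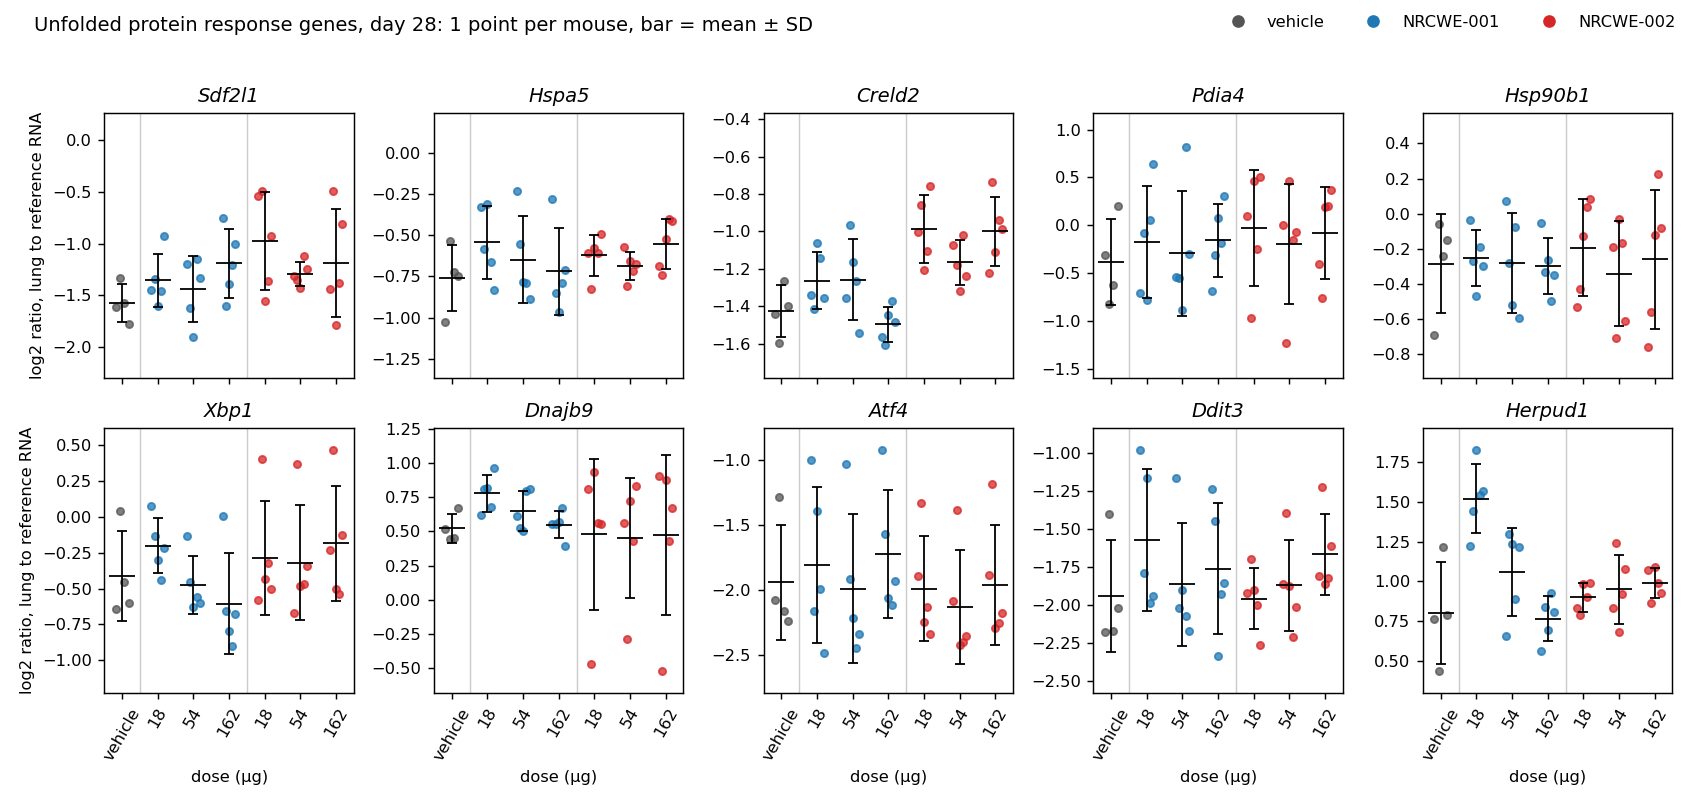
Log2 ratio of lung to reference RNA (vertical axis) for each of the 10 genes on day 28, by dose in µg (horizontal axis), with 1 point per mouse, 4 vehicle mice, 5 mice in each exposed group and a bar at the mean ± SD. Herpud1 at 18 µg of NRCWE-001 lies above its 4 vehicle mice, and at 162 µg Sdf2l1 overlaps its vehicle mice.

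The change of effect between days was tested directly as the effect of 162 µg on day 28 minus that on day 1. Although 3 genes were called on day 1 and 0 on day 28, this difference was called in 0 of 10 genes for either particle (0% of all genes in both comparisons). At an unadjusted p below 0.05 there were 4 of 10 for NRCWE-001 (3.85% of all genes) and 2 of 10 for NRCWE-002 (6.7% of all genes). With NRCWE-001 the difference was -0.68 ± 0.20 (SE) for Hspa5 and -0.63 ± 0.17 for Creld2 (adjusted p = 0.733 for both), and -0.73 ± 0.35 for Sdf2l1 (adjusted p = 1.00). With NRCWE-002 it was -0.88 ± 0.35 for Sdf2l1 (adjusted p = 0.632), -0.43 ± 0.20 for Hspa5 (0.687) and -0.05 ± 0.17 for Creld2 (0.992). Between the vehicle mice of day 28 and day 1, 0 of 10 genes were called (0% of all genes), and the largest differences were 0.44 ± 0.26 for Atf4 and 0.43 ± 0.19 for Xbp1 (adjusted p = 0.918 for both).

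NRCWE-002 and NRCWE-001 differ in surface charge, so the particles were compared at matched doses. On day 1, averaged over 3 doses, the particles differed in 0 of 10 genes (0.108% of all genes), and 0 of 10 differed at an unadjusted p below 0.05 (8.87% of all genes). The difference, NRCWE-002 minus NRCWE-001, was -0.003 for Sdf2l1 (95% confidence interval -0.28 to 0.27), -0.08 for Hspa5 (-0.23 to 0.08) and -0.10 for Creld2 (-0.24 to 0.03). At 162 µg alone, 0 of 10 genes were called (0% of all genes) and 0 of 10 had an unadjusted p below 0.05 (1.53% of all genes), and the difference was 0.16 for Sdf2l1 (-0.31 to 0.64), -0.09 for Hspa5 (-0.36 to 0.18) and -0.09 for Creld2 (-0.33 to 0.15). These intervals do not show that the particles act alike.

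Between the particles on day 28, 1 of the 10 genes was called, Creld2, in a comparison where 6.73% of all genes were called and 2.06% were higher with NRCWE-002. This share is near that of all genes, so the values of Creld2 are given as a description. Creld2 ran from -1.42 to -1.06 at 18 µg of NRCWE-001 and from -1.21 to -0.76 at 18 µg of NRCWE-002. At 54 µg it ran from -1.54 to -0.96 and from -1.32 to -1.02, and at 162 µg from -1.61 to -1.37 and from -1.22 to -0.74. At 162 µg of NRCWE-002 the log2 ratios were -1.22, -0.74, -1.11, -0.94 and -0.99, above all of the vehicle mice at -1.44, -1.60, -1.27 and -1.40 (1 of the 10 genes, against 0.511% of all genes). The particles overlapped at 18 and 54 µg and did not overlap at 162 µg. The difference of the means over the 3 doses was 0.29 ± 0.07 (SE, n = 15 and 15, adjusted p = 0.00936). It was not called with slide as a fixed block (0.22, adjusted p = 0.702) or as a random block (0.26, adjusted p = 0.144), fits that called 9 and 38 of 17628 genes against 1186 without a block, and on the 2 slides that held both particles it was 0.24 and 0.26. At 162 µg alone it was 0.50 ± 0.12 and was not called (adjusted p = 0.149). Without background correction or loess, and with each array centred on its median, the difference over the 3 doses was -0.03. The median of all genes was then -0.089, and 4430 genes were called, 339 of them higher with NRCWE-002.

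Markers of B cells and plasma cells, which secrete antibody, were called in the same comparison. Of 9 plasma cell markers, 3 were higher with NRCWE-002, namely Jchain by 0.74, Pou2af1 by 0.56 and Mzb1 by 0.50, and of 6 B cell markers 3 were higher, namely Ms4a1 by 0.68, Cd79b by 0.54 and Cd22 by 0.36. The remaining markers of both lists were not called. At 18, 54 and 162 µg the plasma cell list averaged -1.22, -1.42 and -1.19 with NRCWE-002 and -1.61, -1.66 and -1.22 with NRCWE-001. The B cell list averaged 0.89, 0.98 and 0.70 with NRCWE-002 and 0.26, 0.44 and 0.80 with NRCWE-001. With slide or scan day as a fixed block 0 of all genes were called higher with NRCWE-002, these 6 markers included. Of 10 heat shock genes, 3 were lower with NRCWE-002, namely Hspa1a by 0.58, Dnajb1 by 0.36 and Hspa1b by 0.34. Of the 8 heart muscle markers 0 were called, with 8 of 8 differences above 0 and a median of 0.78, and of the 6 adipocyte markers 0 were called, with 6 of 6 above 0 and a median of 0.53. The plasma cell list ran from -1.64 to -0.59 in the mice given 162 µg of NRCWE-002 on day 28, from -1.60 to -0.79 in those given 162 µg of NRCWE-001 and from -1.85 to -1.45 in vehicle mice. The part of these cells and of the other listed tissues in the difference of Creld2 was not tested. Of the 26 other folding genes, 4 were lower with NRCWE-002 (Fkbp11, Ero1a, Ppib and Fkbp14, by 0.16 to 0.24). Of 26 targets of PERK and ATF4, Chac1 was higher while Cebpg, Ppp1r15b and Slc7a11 were lower. Of all genes, 6.73% were called in either direction and 2.06% were higher. Chac1 was not called higher with slide or scan day as a fixed block. Those fits called 9 and 13 of 17628 genes, against 1186 without a block. Whether the folding, PERK-ATF4 and heat shock genes that were lower kept their calls in those fits is not given here.

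The 10 genes did not vary together as a whole. Over the 69 arrays, the Pearson correlation of the 45 pairs of genes had a median of 0.12 and ran from -0.42 to 0.78. It was 0.70 between Hspa5 and Sdf2l1, 0.68 between Creld2 and Sdf2l1 and 0.65 between Hspa5 and Creld2, and 0.49, 0.52 and 0.43 once group means were removed. A further set was formed by Atf4 with Ddit3 (0.78) and with Xbp1 (0.64), genes of which 75.8% to 82.1% of the spread within groups lay between slides. Herpud1 and Sdf2l1 had a correlation of -0.42. These are descriptions over arrays that share slides and groups.

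The genes whose pattern over the 69 arrays was most like the mean of the 10 genes were Manf (Pearson correlation 0.85), Sec23b (0.76), Cd63 (0.76), Nme1 (0.74) and Banf1 (0.74). Manf, which encodes a secreted ER protein, and Sec23b, which encodes a coat protein of vesicles leaving the ER, also belonged to the other pathway lists.

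The other genes of the pathway were read as lists. At 162 µg on day 1, of 26 folding genes 2 rose with NRCWE-001 and 1 with NRCWE-002, and of 17 genes of translocation and secretion 1 rose with each. Of 9 sensor genes (such as Ern1, Eif2ak3 and Atf6), 17 genes of ER degradation and 26 targets of PERK and ATF4, 0 were called with either particle at that dose, and at no list did a gene fall. Of all genes, 0.454% rose with NRCWE-001 (0.624% called in either direction) and 0.437% with NRCWE-002 (0.59%). At such shares, 0 calls in a list of this size do not set it apart from other genes. The median change of the folding list was 0.20 with each particle (23 of 26 above 0 with each), and that of the translocation and secretion list was 0.26 and 0.29. For the sensors it was 0.02 with each, for degradation 0.09 and 0.08, and for the targets of PERK and ATF4 0.03 and 0.10.

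**Figure D4:**
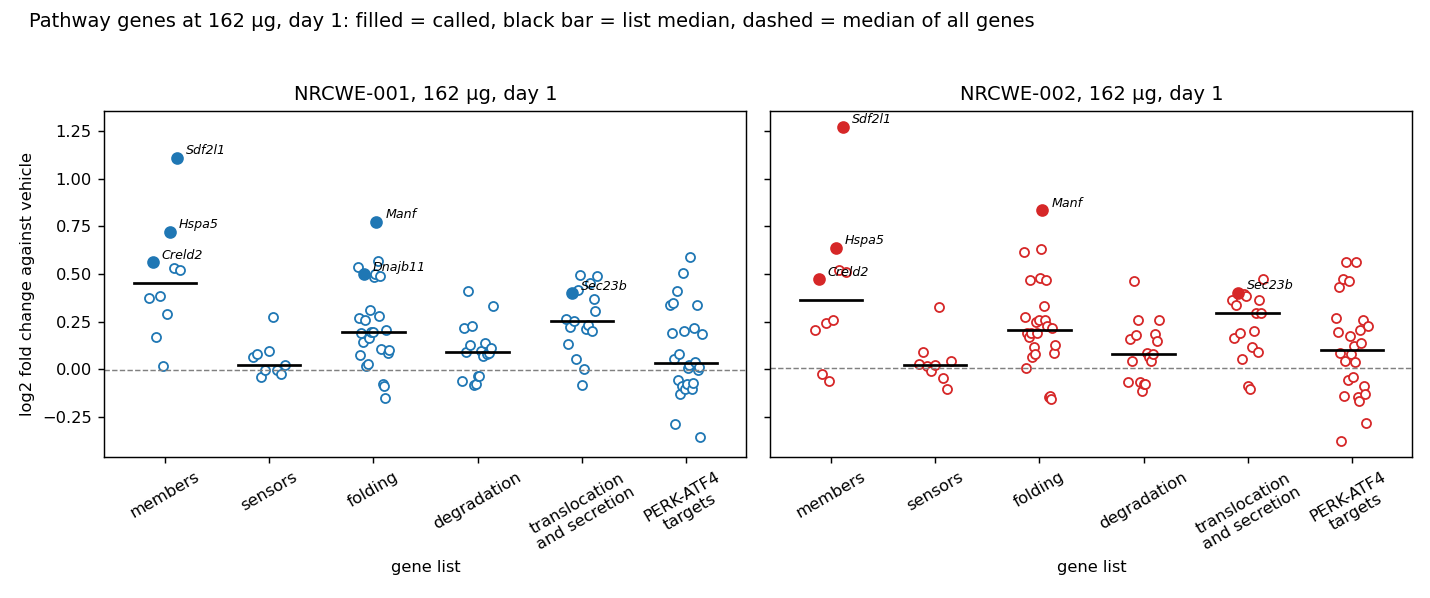
Log2 fold change at 162 µg against vehicle on day 1 (vertical axis) of each of the 10 genes (labelled members) and of each gene in the pathway lists (horizontal axis), with NRCWE-001 on the left and NRCWE-002 on the right. Filled points were called, black bars are list medians and the dashed line is the median of all genes. Manf and Sec23b are filled with both particles, and the bars of the sensors lie at 0.02.

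Manf was the folding gene with the largest change. It averaged -1.21 ± 0.13 (SD, n = 5) in vehicle mice of day 1, -0.44 ± 0.51 at 162 µg of NRCWE-001 and -0.38 ± 0.36 at 162 µg of NRCWE-002. The change was 0.77 ± 0.18 (SE, adjusted p = 0.0172) and 0.83 ± 0.18 (adjusted p = 0.00891), and 4 of 5 and 5 of 5 exposed mice lay above every vehicle mouse. Sec23b changed by 0.40 ± 0.08 with each particle (adjusted p = 0.00656 and 0.00641), with 5 of 5 and 4 of 5 mice above every vehicle mouse. Dnajb11 (ERdj3), a cochaperone of Hspa5, rose by 0.50 ± 0.13 with NRCWE-001 (adjusted p = 0.0418) and changed by 0.47 ± 0.13 with NRCWE-002 (adjusted p = 0.0631).

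Other pathway genes were called by the dose effect on day 1. These were Pdia6, a disulfide isomerase, with both particles (adjusted p = 0.03 and 0.0236), Derl1, of the degradation channel, with NRCWE-001 (0.0421), and Dnajb11 with both (0.0338 and 0.047). Atf3, a transcription factor induced downstream of ATF4 and by other stress signals, was called at 162 µg of NRCWE-001 on day 28, with a change of 1.06 ± 0.21 (SE, adjusted p = 0.0263) and an adjusted p of 0.00497 for the dose effect. It was the only one of the 26 targets called there. That comparison called 9 of 17628 genes, and with slide as a fixed block or with only the arrays of the groups compared it called 0, Atf3 included. Immediate early genes, which respond within minutes to many stimuli, lay above 0 there in 11 of 11 genes, with a median change of 0.60 and 1 called, Nr4a1 by 2.07. Their part in the change of Atf3 was not tested.

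Markers of inflammatory cells moved in the same day 1 comparisons. The 10 neutrophil markers had summed levels of 1.46 to 2.47 at 162 µg of NRCWE-001, 1.55 to 2.12 at 162 µg of NRCWE-002 and 1.16 to 1.54 in vehicle mice. With NRCWE-001, 4 of 10 rose, namely Il1r2 by 1.25, Cxcr2 by 0.82, Csf3r by 0.81 and Trem1 by 0.50, and with NRCWE-002 1 of 10, Trem1 by 0.53. Of all genes, 0.454% rose with NRCWE-001 and 0.437% with NRCWE-002. Siglecf, of the 8 macrophage markers, fell by 0.999 with NRCWE-001 and by 1.01 with NRCWE-002, as 1 of 8 called. The median change of the 8 was -0.19 with NRCWE-001 (3 above 0) and 0.03 with NRCWE-002 (4 above 0). Plasma cell markers had 0 of 9 called at 162 µg on day 1 with either particle, with a median change of -0.11 and 0.003, and lung markers had 0 of 10. Of 6 adipocyte, 6 B cell, 8 heart muscle, 10 heat shock and 11 immediate early genes, 0 were called at that dose and day with either particle. The heart muscle list had a median change of 0.52 with NRCWE-001 (7 of 8 above 0) and 0.75 with NRCWE-002 (8 of 8). The median was 0.26 and 0.19 for the heat shock genes (9 of 10 above 0 in both), and 0.30 (9 of 11) and 0.36 (8 of 11) for the immediate early genes. The part of incoming cells, heart muscle and these stress genes in the changes of Sdf2l1, Hspa5 and Creld2 was not tested.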

How the data were processed

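Agilent 2-colour arrays of 69 mouse lungs were used, each with the RNA of 1 mouse in Cy5 and a reference RNA in Cy3, and with no dye swap. The main values were the log2 ratios of the authors' deposited table, which had been normalized by LOWESS within each array. The deposited scanner files held the intensity of each spot and its background, read by Agilent Feature Extraction 11.0.1.1, with processed signals and a log10 ratio of Cy5 to Cy3, and they served for the alternatives, the background calls and the direction of the table. Per array, the table correlated at 0.987 to 0.995 with log2 ratios made from the deposited intensities (normexp with an offset of 50, then loess). The log10 ratio of the deposited files, turned to log2, was the alternative from processed signals and correlated at 0.870 to 0.934 with the table.

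Probe accessions were matched to RefSeq symbols of GRCm38.p6, which 27479 of 41174 probes (66.7%) did. Probes stayed in when at least 4 of 69 arrays had them well above background in Cy5, and a gene took the median over its probes. Groups came from the labels. Group means were fitted with limma 3.58.1 in R 4.3.3, without other terms. The dose-effect F-test took up that of the study's methods, here in a moderated form over all arrays together. The steps were tested on simulated data without slide effects. With slide as a random block, the correlation of arrays on a slide was 0.48. The simulation therefore cannot show how the fit behaves on arrays that share slides. The F-test has no direction and the other tests were 2-sided. The arrays hold no counts, so their number per group (4 or 5) limits the precision.

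The members, the gene lists and the tests were chosen with earlier results of these data known. All 10 members were named. Of the other pathway genes, up to 8 were named, those called most often in the dose-effect tests and the comparisons at 162 µg, with the 5 genes most like the members in pattern. Genes of the marker lists, and those of the day 28 comparison of particles, were named after their values were seen. Lists of adipocyte, B cell and immediate early genes were also read. Pdia3, Cd68 and Ear2 could not be tested. Promoters came from RefSeq.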

Additional observations from a re-analysis of the deposited data

Results flagged for a closer look

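Among 140 groups of 4 or 5 mice (10 genes in 14 groups), 8 had a highest or lowest mouse set apart by Dixon's test. Chance alone gives about 7 if the mice are independent, which mice sharing a slide are not. These were Ddit3 at -1.63 in replicate 5 of 18 µg of NRCWE-001 on day 1 and at -1.16 in replicate 1 of 54 µg of NRCWE-001 on day 28. Xbp1 was at 0.0077 in replicate 1 of 162 µg of NRCWE-001 and at 0.41 in replicate 2 of 18 µg of NRCWE-002, both on day 28. Atf4 was at -2.37 in replicate 5 of 162 µg of NRCWE-001 and at -1.60 in replicate 2 of 54 µg of NRCWE-002, both on day 1. Dnajb9 was at -0.47 in replicate 2 of 18 µg of NRCWE-002 on day 28, the same mouse as for Xbp1, and Hsp90b1 was at -0.51 in replicate 5 of 162 µg of NRCWE-002 on day 1. The flags of Xbp1 at 0.0077 and Ddit3 at -1.16 came from the same slide. The vehicle mouse on that slide was the highest of its group in both genes, at 0.043 for Xbp1 and -1.40 for Ddit3. The flags of Ddit3 at -1.63 and Atf4 at -1.60 shared another slide. Whether these flags belong to the slide or to the mouse was not tested.

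Creld2 differed between the particles on day 28 by 0.29 on the log2 scale (NRCWE-002 minus NRCWE-001, n = 15 and 15, adjusted p = 0.00936 by limma), the direct test of that difference. In that comparison 6.73% of all genes were called. With slide as a fixed or a random block the difference was not called (adjusted p = 0.702 and 0.144).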

How the results depend on the processing

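Sdf2l1, Hspa5 and Creld2 kept a change above 0 at 162 µg on day 1 under every alternative run. No paired analysis was possible because replicate numbers follow the order of the samples. Slides that held vehicle and exposed mice gave the block and the within-slide differences instead. Counts of members called are followed in brackets by those over all 17628 genes. Without background correction or loess, and centred on the median, they went from 3 (155) to 0 (35) for the dose effect of NRCWE-001 on day 1, from 1 (121) to 0 (33) on day 28, from 3 (104) to 1 (52) for 162 µg of NRCWE-002 on day 1, from 1 (55) to 0 (22) for 18 and 54 µg over 8 comparisons, and from 1 (1186) to 2 (4430) for the particle difference on day 28. With slide as a fixed block these dose effects gave 5 (1345) and 2 (382), 162 µg of NRCWE-001 on day 1 gave 6 (725, against 110), 18 and 54 µg gave 3 (489) and the particle difference 0 (9). As a random block, 162 µg of NRCWE-001 on day 1 gave 5 (618), 18 and 54 µg gave 4 (473) and the particle difference 0 (38). With scan day as a block the dose effects gave 6 (1171) and 2 (383), 162 µg on day 1 gave 6 (718) and 5 (704), 18 and 54 µg gave 3 (346), the particle difference 0 (13) and the day difference of NRCWE-001 1 (5, Xbp1 at adjusted p = 0.0342). Wherever a block gave more members called, it also called more of all genes. With only the arrays of the groups compared, both dose effects of NRCWE-001 gave 0 (322 and 15) and its 162 µg on day 1 gave 0 (12), and with the 162 µg arrays alone, added after seeing the data, the particle difference gave 0 (0). Leaving out 1 mouse gave 0 to 3 for the dose effect of NRCWE-001 on day 1 (0 without replicate 3 or 4 of 162 µg), 1 to 3 for 162 µg of either particle on day 1 and 0 to 1 for 18 and 54 µg (0 without vehicle replicate 2 of day 28). The causes were not tested.

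Changes of sign at 162 µg concerned changes that were not called. Without background correction or loess these were, on day 28 with NRCWE-001, Herpud1 0.017, Creld2 0.038 and Hsp90b1 0.12, on day 1 with NRCWE-002, Herpud1 0.14 and Ddit3 0.15, and on day 28 with NRCWE-002, Herpud1 -0.14, Hspa5 -0.13, Ddit3 -0.059, Xbp1 -0.046, Pdia4 -0.016 and Hsp90b1 -0.26. In that setting the median of all genes was 0.013, 0.076 and -0.12 in these comparisons, in the same order. A change of sign within such a shift of all genes is not particular to a member. Hsp90b1 on day 28 with NRCWE-001 was 0.0016 with normexp and loess, 0.052 with slide as a fixed block, 0.027 as a random block and 0.044 with scan day. Ddit3 on day 1 with NRCWE-002 was 0.035 from processed signals and 0.091, 0.051 and 0.044 with these blocks. On day 28 with NRCWE-002, Atf4 was 0.11, 0.078 and 0.12 and Dnajb9 0.14, 0.072 and 0.076 with them. Herpud1 on day 1 with NRCWE-001 was -0.050 and -0.040 with slide. Dnajb9 on day 28 was -0.048 (NRCWE-001) and 0.050 (NRCWE-002) as a mean over probes, and -0.0019 with scan day (NRCWE-001). Leaving out 1 mouse, the ranges were -0.014 to 0.038 for Herpud1 on day 1 and -0.16 to 0.10 on day 28, -0.070 to 0.11 for Hspa5, -0.0035 to 0.076 for Dnajb9 and -0.15 to 0.062 for Hsp90b1 on day 28, all with NRCWE-001. With NRCWE-002 they were -0.076 to 0.041 for Ddit3 on day 1, and -0.21 to 0.20 for Atf4, -0.16 to 0.20 for Dnajb9 and -0.11 to 0.15 for Hsp90b1 on day 28.

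Without background correction or loess the median of all genes moved by up to -0.21, in the day difference of NRCWE-002. Of the genes called at 162 µg on day 1, 80 of 110 (NRCWE-001) and 77 of 104 (NRCWE-002) were higher, against 45 of 48 and 50 of 52 without background correction or loess, and 6 of 12 and 384 of 563 with only the groups compared.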
